A study of Homo sapiens with 4 samples.

Results

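The 41 genes described here make, convert and break down ceramide and the sphingolipids built on it. They were picked by name, as enzymes and regulators of sphingolipid and ceramide metabolism, from the 58288 genes listed in the RNA-seq tables, and all 41 names were found there. The rule uses no measured value. The cells were HK2, an immortalised line from human proximal tubule, and all 4 libraries came from cells given 50 μM FG-4592 (roxadustat) for 6 h. FG-4592 inhibits the prolyl hydroxylases, enzymes by which HIFα proteins are tagged for destruction. RNA-seq was done on 2 libraries and HIF1α ChIP-seq, which recovers the DNA bound by an antibody's target, on 2 others. Untreated cells were not analysed here, so each value is a level or a position under FG-4592, with no fold change by treatment and no test.

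Sphingolipid synthesis starts in the endoplasmic reticulum, where serine and a fatty acyl-CoA are joined to a long-chain base, which is then acylated and desaturated to ceramide. Ceramide is the branch point: it is turned into sphingomyelin, glucosylceramide or ceramide 1-phosphate, or is cut to sphingosine, whose phosphate is a signalling lipid. In the kidney, glycosphingolipids are abundant in tubule cells, and loss of lysosomal α-galactosidase lets them build up there, as in Fabry disease.

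Levels are given as FPKM, which corrects the fragments of a transcript for its length and for the mapped total, summed over the annotated transcripts of a gene. FPKM is scaled by length, so levels are set side by side between genes. A summed FPKM also depends on how the reads of a gene are divided among its short and long transcripts. As a measure of depth, the coverage of all transcripts times their length came to 4442 Mb in RNA-seq replicate 1 and 4202 Mb in replicate 2. The tables hold no read counts.

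The kidney tubule label was checked against lists of marker genes. Of 5 epithelial genes, 4 reached an FPKM of 1 in both libraries. Their FPKM summed to 437 in replicate 1 and 433 in replicate 2, with *KRT19* the most abundant at 184 and 177. *CDH1*, which encodes E-cadherin, had 0.211 and 0.379. Among transcription factors of the tubule, *PAX8* had 121 and 114, and *HNF4A* was listed at 0 in both. Of 10 genes of the differentiated proximal tubule 2 passed, *GGT1* at 62.3 and 58.5 and *SLC5A2* at 2.59 and 1.70, and the list summed to 65.4 and 60.8. *LRP2*, *SLC22A6* and *SLC22A8* were listed at 0 in both libraries, and the other 5 were below 1. Without read counts, a listed 0 can be a failed estimate and is not read as a low level. The libraries thus showed epithelial keratins and *PAX8*, while most listed markers of the mature proximal tubule did not reach an FPKM of 1.

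Of the markers of other cells, those that reached an FPKM of 1 were in the mesenchymal list. Of 4 fibroblast or mesenchymal genes, 2 passed, and the list summed to 1334 and 842. Its most abundant gene was *VIM*, at 1294 and 802, followed by *COL1A1* at 38.7 in each library. Of the distal or collecting duct genes 0 of 4 passed (summed FPKM 0.0195 and 0.0268, *SLC12A3* the most abundant, with *UMOD*, *SLC12A1* and *AQP2* at 0). For endothelial genes it was 0 of 3 (0.0254 and 0, *CDH5* the most abundant, *PECAM1* at 0). For leukocyte genes it was also 0 of 3 (0.573 and 0.546, *CD14* the most abundant, *PTPRC* and *CD3E* at 0). In a bulk library, fewer cells of a type and less RNA per cell cannot be told apart.

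Of the 41 sphingolipid genes, 31 (75.6%) had an FPKM of at least 1 in both libraries, against 58.8% of the 19659 protein-coding genes found in both annotations and 22.5% of all listed genes. Their median FPKM was 9.15 in replicate 1 and 9.32 in replicate 2, where the protein-coding genes had medians of 3.31 and 3.36. Leaving out genes whose mean FPKM was below 1, the median of the mean FPKM was 16.8 for members and 10.8 for protein-coding genes. A mean FPKM of 10 or more was found for 19 of the 41, against 31.3% of protein-coding genes. The members' levels were thus somewhat above a background in which most protein-coding genes also pass. Of the 10 genes that did not pass, 9 were below 1 in both libraries (*DEGS2*, *CERS3*, *SMPD3*, *ACER1*, *SGPP2*, *ST3GAL5*, *GALC*, *NEU2* and *NEU4*), and *SPTLC3* was above 1 in replicate 1 only. *ACER1*, *GALC* and *NEU2* were listed at 0 in both, as were 19.4% of the protein-coding genes.

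**Figure D1:**
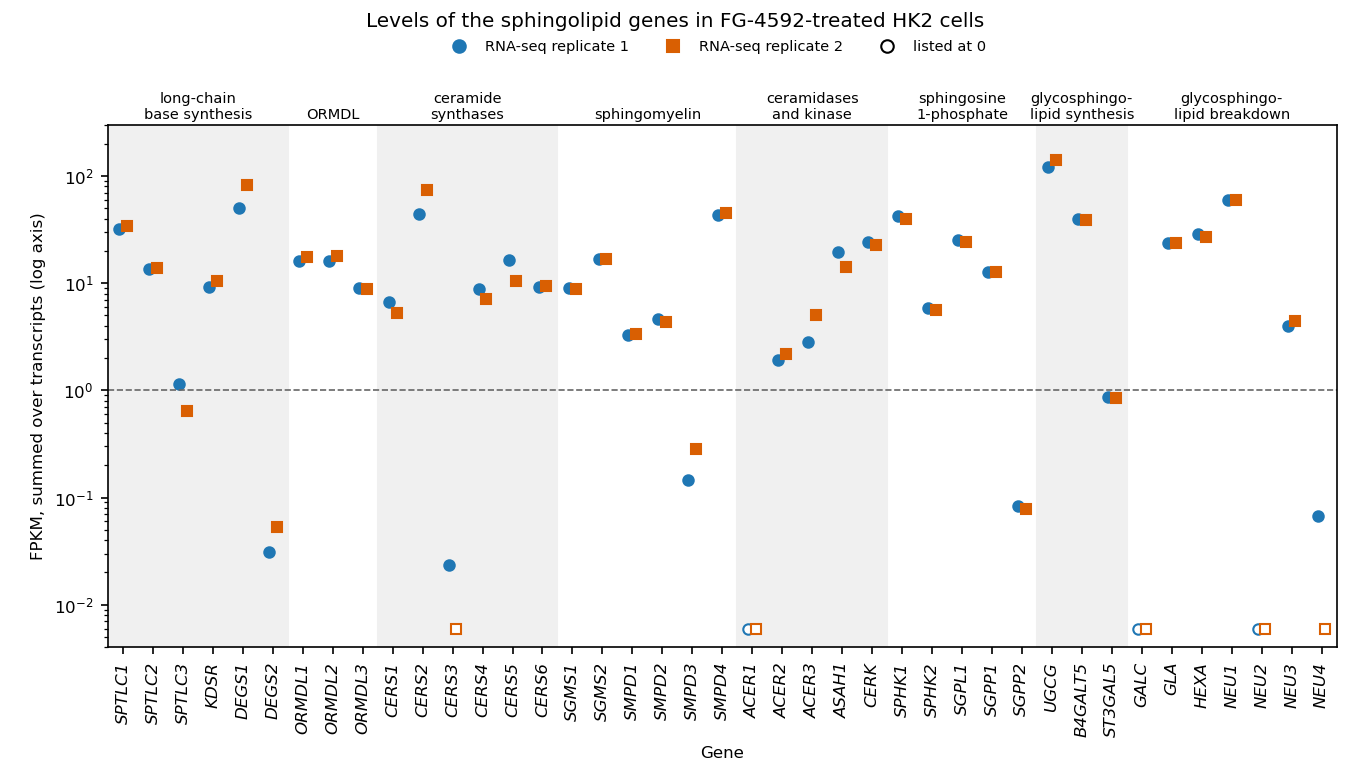
FPKM of the 41 sphingolipid genes (log axis), grouped by role, with a circle for RNA-seq replicate 1 and a square for replicate 2; open symbols at the bottom stand for genes listed at 0 and the dashed line for an FPKM of 1. *UGCG* is highest in both libraries, and the genes below the line are mostly relatives of a gene well above it.

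Long-chain bases are made by serine palmitoyltransferase, a complex of *SPTLC1* with a catalytic subunit from *SPTLC2* or *SPTLC3*. *SPTLC1* reached 32.0 FPKM in replicate 1 and 34.2 in replicate 2. *SPTLC2* had 13.5 and 14.0, and *SPTLC3* had 1.15 and 0.647. The *SPTLC3* difference lay mainly in a transcript of 572 bases, ENST00000434210, at 0.863 and 0.258. By coverage times length, scaled by the library total, *SPTLC3* was 1.08 times as high in replicate 2, so its lower FPKM there is uncertain. Of the summed FPKM of the catalytic subunit genes *SPTLC2* and *SPTLC3*, *SPTLC3* held 7.87% and 4.42%, so most of this mRNA level was that of *SPTLC2*. *KDSR*, whose enzyme reduces the first ketone product, had 9.22 and 10.6.

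The desaturases put in the double bond that turns dihydroceramide into ceramide, and *DEGS2* can also add a hydroxyl group. *DEGS1* reached 50.6 FPKM in replicate 1 and 82.1 in replicate 2, and *DEGS2* had 0.0312 and 0.0528. *DEGS1* therefore carried 99.9% of the desaturase FPKM in each library, although its own level differed between them by more than that of most members.

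The ORMDL proteins sit in the endoplasmic reticulum and hold serine palmitoyltransferase in check when ceramide is plentiful. *ORMDL1* had 15.9 and 17.7 FPKM, *ORMDL2* had 16.2 and 17.8, and *ORMDL3* had 9.05 and 8.81. Here no gene dominated: the lowest, *ORMDL3*, held 22.0% of the summed FPKM in replicate 1 and 19.9% in replicate 2.

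Ceramide synthases attach the acyl chain, and each prefers certain chain lengths: *CERS2* very long chains, *CERS5* and *CERS6* the palmitoyl chain, *CERS1* the stearoyl chain and *CERS3* the longest chains of skin. *CERS2* had the highest FPKM of the 6, at 44.4 in replicate 1 and 73.4 in replicate 2. *CERS5* had 16.4 and 10.4. *CERS2* was thus 2.71 times *CERS5* in replicate 1 and 7.03 times in replicate 2, so the order held while its size did not. *CERS6* had 9.15 and 9.32 FPKM, *CERS4* had 8.90 and 7.16, and *CERS1* had 6.60 and 5.28. *CERS3* had 0.0237 in replicate 1 and was listed at 0 in replicate 2. The share of *CERS2* in the family's FPKM was 52.0% and 69.5%.

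Sphingomyelin is made from ceramide by *SGMS1*, in the Golgi, and *SGMS2*, also at the plasma membrane. *SGMS1* had 8.98 and 8.87 FPKM and *SGMS2* had 16.9 and 16.7, so *SGMS2* was 1.88 times *SGMS1* in each library. By protein-coding transcripts alone the ratio was 1.23 and 1.41, and about as much of the *SGMS2* level lay in a short transcript without a defined coding region. The sphingomyelinases run the reaction back to ceramide. *SMPD4*, a neutral enzyme of internal membranes, had 43.6 and 44.8 FPKM, while *SMPD1*, the acid enzyme of lysosomes, had 3.29 and 3.38. Among the other neutral enzymes, *SMPD2* had 4.65 and 4.33 and *SMPD3* had 0.144 and 0.286. *SMPD4* carried 84.3% and 84.9% of the FPKM of these 4 genes, but most of the *SMPD4* level lay in transcripts with a retained intron, as described with the transcripts.

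Ceramidases cut ceramide into sphingosine and a fatty acid. *ASAH1*, the acid ceramidase of lysosomes, had 19.6 and 14.3 FPKM. The alkaline ceramidases of the Golgi and endoplasmic reticulum were lower, *ACER2* at 1.91 and 2.17 and *ACER3* at 2.84 and 5.05, and *ACER1* was listed at 0. *ASAH1* led in both libraries, with 80.5% of the FPKM of these 4 genes in replicate 1 and 66.5% in replicate 2. The sum leaves out *ASAH2*, a ceramidase gene outside the members, named for that reason, at 0.974 and 1.26. In protein-coding transcripts *ASAH1* had only 6.22 and 4.82 FPKM, still the highest of the 4. *CERK*, which phosphorylates ceramide, had 24.2 and 22.6.

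Sphingosine is phosphorylated by the sphingosine kinases. *SPHK1* had 41.9 and 40.0 FPKM and *SPHK2* had 5.86 and 5.58, a ratio of 7.16 in replicate 1 and 7.17 in replicate 2. *SGPL1*, the lyase that ends the pathway by splitting sphingosine 1-phosphate, had 25.5 and 24.1. *SGPP1*, a phosphatase that takes the phosphate off again, had 12.8 and 12.6, and the related *SGPP2* had 0.0830 and 0.0777. In this branch both libraries gave the same order, with the kinase *SPHK1* highest and differences between replicates that were small beside those between genes.

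*UGCG* encodes glucosylceramide synthase, the enzyme that adds the first sugar to ceramide. It had the highest FPKM of the 41 genes, at 122 in replicate 1 and 141 in replicate 2. Its lower value was above the higher value of every other member, with *DEGS1* next at 82.1 in replicate 2. *B4GALT5*, which adds the next sugar to give lactosylceramide, had 39.9 and 38.6, and *ST3GAL5*, which makes the ganglioside GM3 from it, had 0.874 and 0.843. The level thus fell at each step of this route: *UGCG* was 3.07 and 3.65 times *B4GALT5*, and 140.2 and 167 times *ST3GAL5*. Only 11.1% and 19.4% of the *ST3GAL5* FPKM lay in protein-coding transcripts, at 0.0969 and 0.164. By protein-coding transcripts alone, *UGCG* was 2.88 and 3.31 times *B4GALT5*, and 1183 and 779 times *ST3GAL5*. The order was the same, but the size of the ratio to so low a gene depended on the transcripts counted.

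Glycosphingolipids are taken apart in lysosomes. *NEU1*, a sialidase, had 60.1 and 59.3 FPKM. *HEXA*, which encodes a subunit of β-hexosaminidase, had 28.6 and 27.1, and *GLA*, the α-galactosidase lost in Fabry disease, had 23.5 in each. These 3 differed little between the libraries. *NEU3*, the sialidase of the plasma membrane, had 4.02 and 4.39, *NEU4* had 0.0672 and was then listed at 0, and the cytosolic *NEU2* was listed at 0 in both. *NEU1* held 93.6% and 93.1% of the sialidase FPKM.

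**Figure D2:**
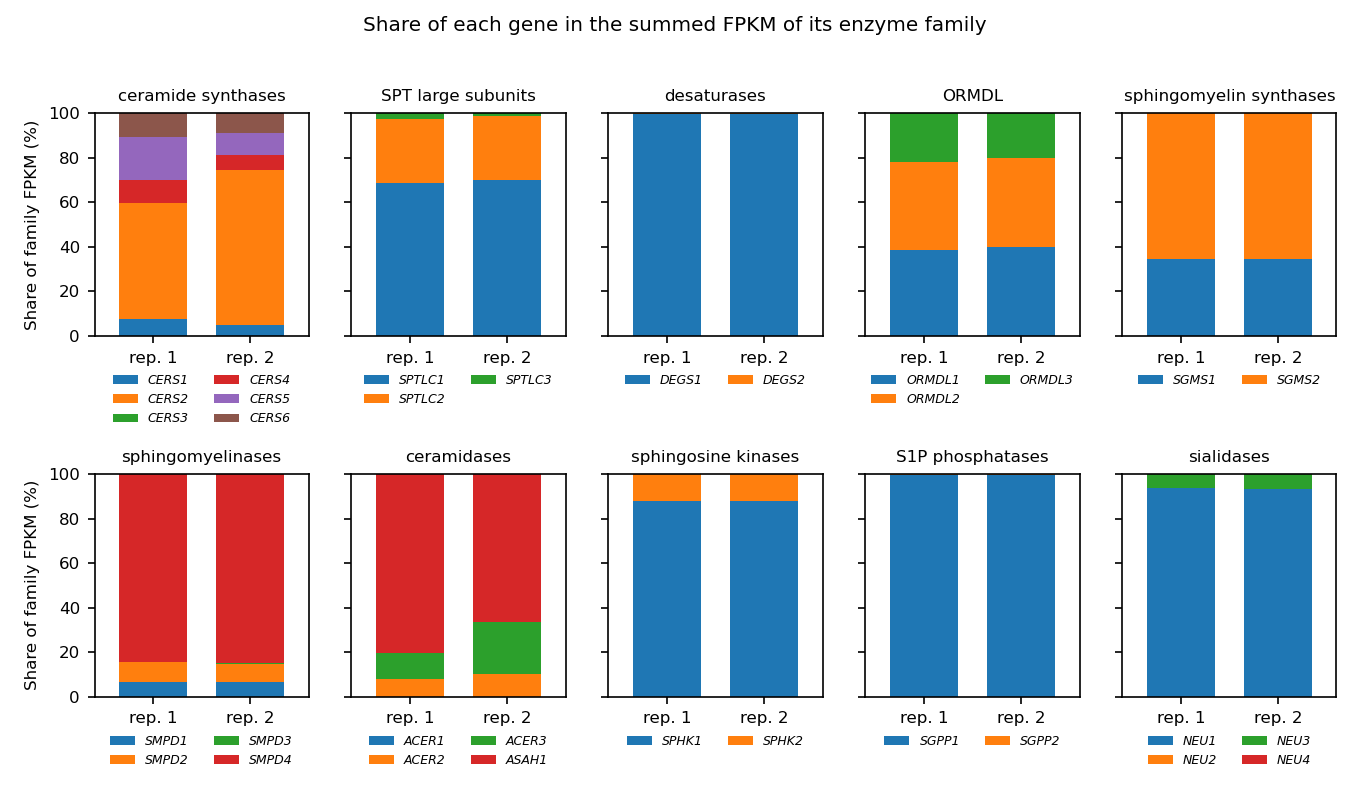
Share of each gene in the summed FPKM of the members of its enzyme family (%), 1 stacked bar per RNA-seq library and 1 panel per family. *DEGS1*, *SGPP1* and *NEU1* fill most of their bars in both libraries, while the ceramide synthase and ceramidase bars differ between the libraries.

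*GALC*, which encodes the lysosomal galactosylceramidase lost in Krabbe disease, was listed at 0 for all 16 of its transcripts in both libraries. The tables hold no counts, so this 0 has no known floor, and whether it is a failed estimate cannot be told from them. Around the gene, within 1 Mb on either side on GRCh38, the tables list 32 genes, of which 22 were at 0 in both libraries, but only 2 of the 8 protein-coding genes there, *GALC* and *GPR65*, were. Of the other 6, *SPATA7* (3.68 and 3.90), *PTPN21* (8.75 and 8.70), *ZC3H14* (15.0 and 14.8) and *TTC8* (6.70 and 7.71) were above 1. *KCNK10* (0.0982 and 0.271) and *EML5* (0.0489 and 0.0420) were far below it. Among gene families picked by name, 0 of 48 genes whose symbols start with NDUF, 0 of 78 for mitochondrial ribosomal proteins and 0 of 32 for RNA polymerase subunits were at 0 in both, while 3 of 97 whose symbols start with RPL or RPS were. A match by symbol can take in genes not used in every cell, and these 3 were not looked at singly. These neighbours and families were chosen after the 0 was seen.

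The libraries differed little for most members. Over the 31 genes at or above a mean of 1, the median absolute log2 ratio of replicate 2 to replicate 1, on log2(FPKM + 1), was 0.08, where the protein-coding genes had 0.12 and the 13467 genes of any type 0.13. Replicate 2 was higher for 15 members and lower for 16. More than 1.5-fold apart in FPKM were 4 of the 31, *DEGS1*, *CERS2*, *CERS5* and *ACER3*, against 5.38% of protein-coding genes at the same minimum. With 1 library against 1 of the same treatment, these ratios describe the libraries and have no test.

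**Figure D3:**
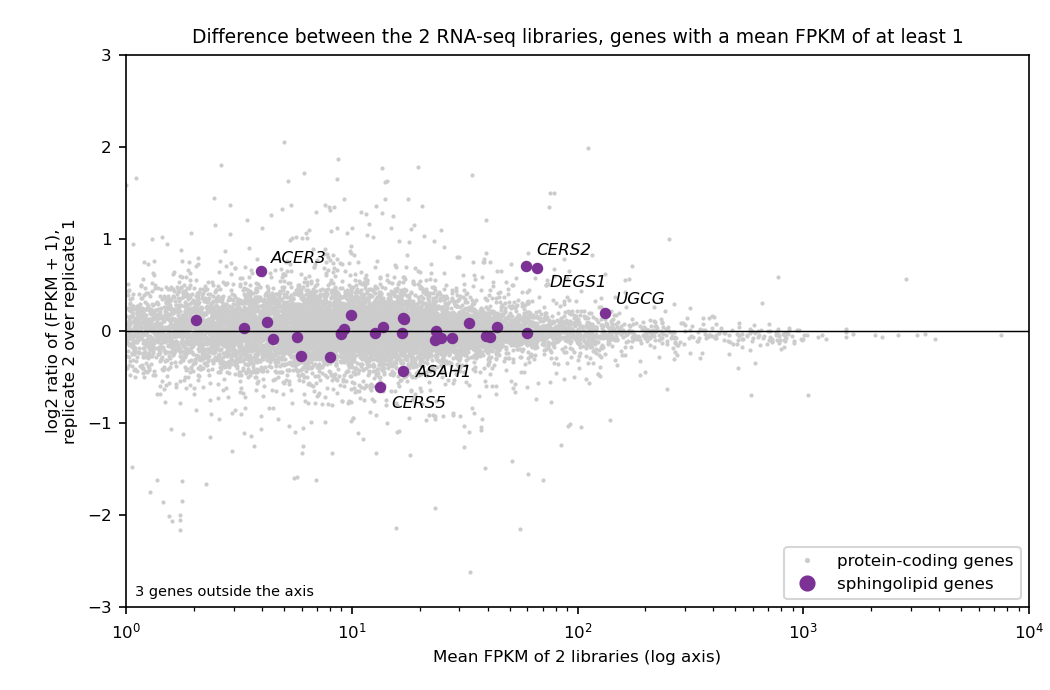
The log2 ratio of replicate 2 to replicate 1 on log2(FPKM + 1), against the mean FPKM of the libraries (log axis), for the 31 sphingolipid genes (purple) and all protein-coding genes (grey) with a mean FPKM of at least 1. Most purple points lie near 0, with *CERS2*, *DEGS1* and *ACER3* above and *CERS5* below.

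In all 4 the difference lay mainly in a few transcripts, named here after their values were seen. *DEGS1* differed in its largest transcript, ENST00000323699, with 43.0 FPKM in replicate 1 and 69.8 in replicate 2. In *CERS2*, the protein-coding ENST00000560793 had 8.24 and 39.2, while ENST00000368954, the largest in replicate 1, had 20.5 and 14.3. So the gene's higher level in replicate 2 came with another order of its transcripts. In *CERS5*, a retained-intron transcript, ENST00000551005, had 4.39 and 0.242, and the largest one, ENST00000317551, had 5.39 and 4.76. For *ACER3* the transcript ENST00000278544, annotated as a target of nonsense-mediated decay, had 0.767 and 3.21, and the protein-coding ENST00000532485 had 1.49 and 1.51. The *CERS5* and *ACER3* differences thus sat mostly outside the protein-coding transcripts. Covered bases, each scaled by the total of its library, gave similar gene ratios, with 1.63 for *DEGS1*, 1.63 for *CERS2*, 0.541 for *CERS5* and 1.58 for *ACER3*.

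The 41 genes had 462 transcripts, and StringTie divides the reads of a gene among them. For the 31 genes at that minimum, the largest transcript held a median of 62.7% of the FPKM, against 61.8% for protein-coding genes. It held over 90% in 9 of them, such as *SPTLC2* (97.6%), *UGCG* (92.0%) and *NEU1* (91.5%), against 20.1% of protein-coding genes. It held under 50% in 10, against 35.4%. The same transcript was largest in both libraries for 26 of 31 genes, against 78.8% of protein-coding genes. The exceptions were *ACER3*, *CERS2*, *CERS4*, *SGMS2* and *SPHK2*. The median share of the largest transcript was thus close to that of protein-coding genes.

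Ranked by the mean of the libraries, the largest transcript is not always the largest in each. Of 29 members whose largest transcript by that mean could be matched to a type in GENCODE 44, 4 (13.8%) had one annotated as other than protein-coding, against 9.42% of the protein-coding genes. In *SMPD4* it was, in both libraries, the retained-intron transcript ENST00000491128, with 19.2 and 23.9 FPKM. Protein-coding transcripts held 42.6% and 38.6% of this gene's FPKM, that is 18.6 and 17.3. In *ASAH1*, a retained-intron transcript, ENST00000638028, was also largest in both, with 8.57 and 4.76, and the protein-coding transcripts held 31.8% and 33.7%. By protein-coding transcripts alone both genes were therefore well below their summed level.

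The other genes of this kind were *SGMS2* and *ACER3*, each in 1 library only. In *SGMS2*, ENST00000515332, of 498 bases and with no defined coding region, had 8.91 and 7.90 FPKM. It was largest in replicate 1, while in replicate 2 the protein-coding ENST00000394684 was, with 6.72 and 8.03. All protein-coding transcripts of *SGMS2* together had 7.49 and 8.37. In *ACER3* it was ENST00000278544, already described, which was largest in replicate 2, and in replicate 1 the protein-coding ENST00000532485 was. *CERS4* was not of this kind by the mean, but its largest transcript in replicate 1 was the retained-intron ENST00000557925, with 2.85 and 0.0189 FPKM. Its protein-coding transcripts together had 4.44 and 6.07, higher in replicate 2, where its summed level was lower (8.90 and 7.16). *CERS1* and *KDSR* had a largest transcript absent from GENCODE 44. For *KDSR* only 8.01% and 10.3% of FPKM lay in transcripts typed as protein-coding, while that absent transcript held 43.0% and 45.0%. Over these 31 members, protein-coding transcripts held a median of 88.3% of FPKM, against 88.5% in protein-coding genes. They held under 50% in *ACER3*, *ASAH1*, *KDSR*, *SGMS2* and *SMPD4*, for which no share of protein-coding genes is given, so this describes these genes only.

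**Figure D4:**
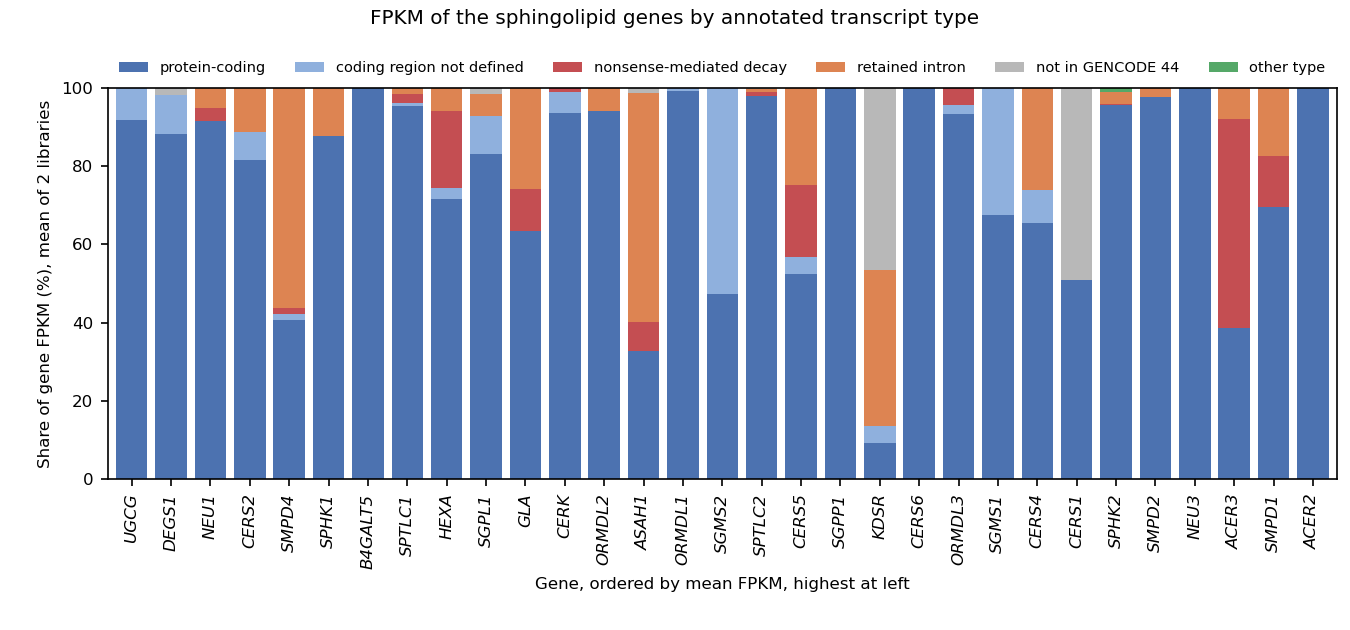
Share of each gene's FPKM (%, mean of the RNA-seq libraries) by annotated transcript type, for the 31 sphingolipid genes averaging an FPKM of 1 or more, ordered by mean FPKM. Protein-coding transcripts fill most bars, with retained introns leading in *SMPD4* and *ASAH1* and nonsense-mediated decay in *ACER3*.

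Some of these levels are uncertain because exons are shared with another gene and the strand of the libraries is not stated. *CERS1* shares 2517 exon bases with *GDF1* on the same strand, which was listed at 0.321 and 0.253 FPKM. On the opposite strand, *SPHK2* overlaps 246 exon bases of *RPL18* (309.8 and 281 FPKM), *SMPD4* 815 of *MZT2B* (83.6 and 78.3), *CERS2* 948 of *SETDB1* (13.0 and 12.8) and *ORMDL2* 920 of *DNAJC14* (11.9 and 11.1). *RPL18* and *MZT2B* were expressed above the member they overlap. Of the low members, *SMPD3* overlaps 239 exon bases of *PRMT7* (29.9 in replicate 1) and *DEGS2* 280 of *EVL* (11.5 and 9.88), so that even their small values may include reads of a neighbour. These partners were chosen by position and named after their values were seen.

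A further 47 genes of sphingolipid metabolism, transport and signalling were taken as a list beside the members. An FPKM of at least 1 in both libraries was reached by 34 of them, against 58.8% of protein-coding genes, and 4 were listed at 0 in both, against 19.4%. The median of the mean FPKM was 7.46, against 3.37 for protein-coding genes, and 19 had a mean of at least 10, against 31.3%. The highest was *PSAP*, the precursor of the saposins that help lysosomal enzymes reach their lipids, at 814 and 764. *SPNS2*, which exports sphingosine 1-phosphate, had 46.8 and 41.8. The β-galactosidase gene *GLB1* had 34.1 and 35.0. *UGT8*, which makes galactosylceramide, the lipid that *GALC* breaks down, had 16.1 and 16.4, and *UGCG* was 7.59 and 8.59 times as high. *S1PR1*, a receptor for sphingosine 1-phosphate, had 17.3 and 17.0. These genes were named because they averaged an FPKM of 10 or more, so their levels do not stand for the list. The other sphingosine 1-phosphate receptors are named to complete the family. *S1PR2* had 2.53 and 2.55, *S1PR5* had 2.72 and 2.65, *S1PR3* had 0.0827 and 0.249, and *S1PR4* was listed at 0 in both.

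HIF1α ChIP-seq peaks, the regions where reads pile up, are listed by position alone on hg19 (GRCh37), with no height or score, and the depth of these libraries is unknown. Replicate 1 has 1689 peaks and replicate 2 has 16953. Of the bases in peaks 32.9% lay in exons in replicate 1 and 84.5% in replicate 2, where exons make up 5.05% of the genome. A promoter peak is a peak within 1 kb of any annotated start site of the gene.

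In replicate 1, 3 of the 41 genes had a promoter peak, against 5.49% of protein-coding genes. In replicate 2 it was 8 of 41, against 14.0%, and in both replicates 1 of 41, against 1.79%. All of these members had a mean FPKM of at least 1. Among protein-coding genes at that level the shares were 8.60% in replicate 1, 20.0% in replicate 2 and 2.87% in both, beside 3, 8 and 1 of 31 members. The share in replicate 2 rose with expression, from 5.18% of protein-coding genes below an FPKM of 1 to 43.0% of those at 50 or more. Over all members, and over the 31, the counts were close to these backgrounds. By class they did not follow that rise: a replicate 2 promoter peak was found for 0 of 10 members below 1, 5 of 12 from 1 to 10 (11.4% of protein-coding genes), 2 of 15 from 10 to 50 (24.4%) and 1 of 4 at 50 or more. These classes hold few members. In replicate 1 the share rose as well, from 0.882% of protein-coding genes below 1 to 14.1% of those at 50 or more. Its 3 members were all among the 15 from 10 to 50 (9.71% of protein-coding genes).

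The 3 peaks of replicate 1 lay at the 5′ ends of *ORMDL1*, *CERK* and *HEXA*. The *ORMDL1* peak, chr2:190649025-190649260, covers the start of the gene, 66 bases of its 5′UTR and exons of *PMS1*, which starts on the other strand. The *CERK* peak, chr22:47134410-47134688, lies upstream of the gene, 261 bp from the start site, and is the only promoter peak of a member with no exon base. The *HEXA* peak, chr15:72668384-72668719, lies 29 bp from the nearest start site and shares 97.6% of its bases with exons, among them those of the antisense gene *HEXA-AS1*. By position, the *ORMDL1* and *HEXA* peaks thus belong as much to the neighbouring gene.

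In replicate 2 the 8 genes had 10 promoter peaks, and each overlapped exons of its own gene. Within 1 kb of the gene's 5′ end were 3 of them: the *DEGS1* peak chr1:224363035-224363555, with 98 bases in its 5′UTR, the *SMPD4* peak chr2:130939818-130940336, with 506 bases in its 5′UTR and exons of *MZT2B*, and the *HEXA* peak chr15:72668060-72668323, with 253 bases in coding sequence. Of the bases of this *DEGS1* peak 63.1% were in exons, most of them those of a pseudogene that starts within 1 kb, and the *HEXA* peak also meets exons of another gene. The other 7 lay at internal start sites. They were a coding-exon peak of *DEGS1* (chr1:224377430-224377946), 3 that reach into or lie in a 3′UTR (*ORMDL3*, chr17:38077325-38078918; *CERS4*, chr19:8326910-8327136; *SMPD1*, chr11:6415400-6415957), and a peak over the coding sequence and 5′UTR of *SGMS1* (chr10:52103679-52103937). *SPHK2* had the remaining ones, in the 5′UTR (chr19:49127763-49127993) and in coding sequence (chr19:49129243-49129552). The nearest start site belonged to a transcript with 4.26 and 6.90 FPKM at this *DEGS1* peak and with at most 0.246 at the other internal peaks. Most promoter peaks of replicate 2 thus lay inside the gene, at start sites of minor transcripts. Only *HEXA* had a promoter peak in both replicates, and its peaks do not overlap. None of the promoter peaks of members met a peak of the other replicate.

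**Figure D5:**
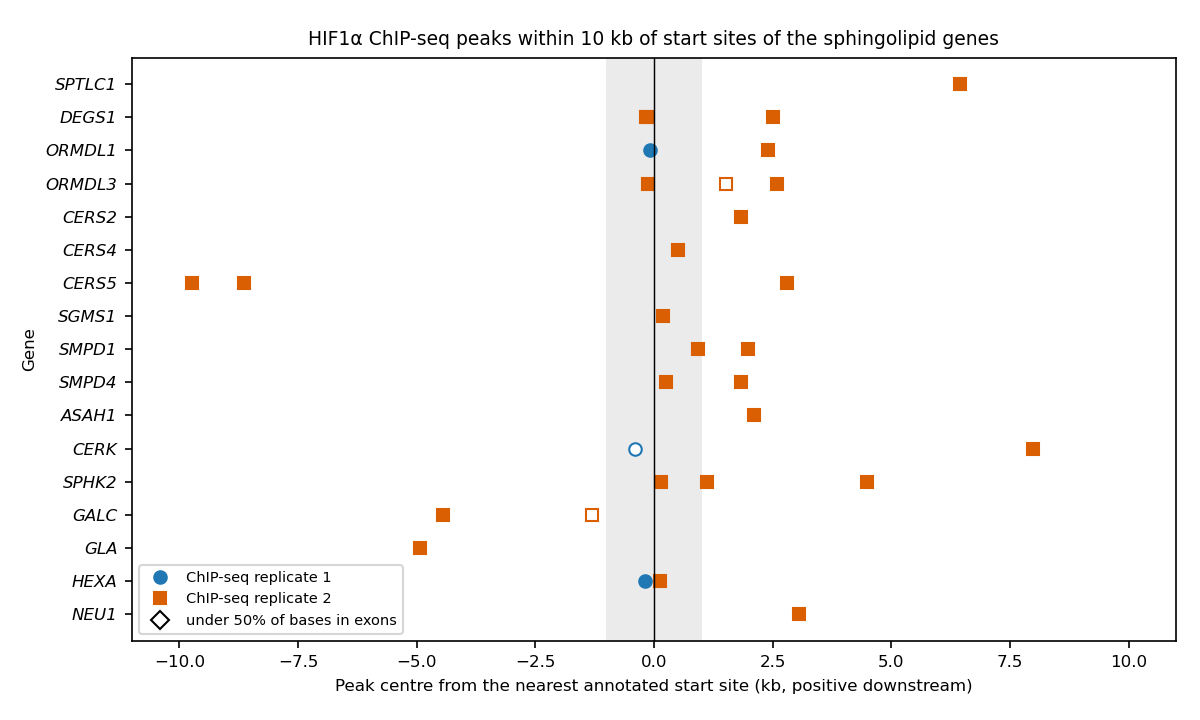
Distance of the centre of each HIF1α peak from the nearest annotated start site (kb, positive downstream) for the sphingolipid genes with a peak within 10 kb, with circles for ChIP-seq replicate 1, squares for replicate 2 and open symbols for peaks with under 50% of bases in exons; the shaded band marks 1 kb on either side, and the *DEGS1* square there covers a pair of peaks at different start sites. Replicate 1 appears at *ORMDL1*, *CERK* and *HEXA*, and replicate 2 mostly downstream of start sites.

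Across whole genes, replicate 1 had 3 peaks in the bodies of 3 members, against 5.98% of protein-coding genes with a peak in the gene. Besides those of *ORMDL1* and *HEXA* it was a peak in an intron of *ACER3*, chr11:76596527-76596807, 24533 bp from the nearest start site. Replicate 2 had 38 peaks in the bodies of 21 of the 41 members, against 38.4% of protein-coding genes. These shares too depend on expression. At a mean FPKM of 1 or more, a gene-body peak was found in 3 of 31 members in replicate 1 and 18 of 31 in replicate 2, against 8.90% and 53.3% of protein-coding genes, so the members were close to them. Of these 38, 27 (71.1%) lay mostly in the 3′UTR of their own gene, where 57.4% of the 13206 replicate 2 peaks in protein-coding gene bodies lay mostly in a 3′UTR. *CERS6* had 5 of them, and *B4GALT5* and *SGPL1* had 3 each. Gene-body peaks of replicate 2 were also found in 3 of the 10 members with a mean FPKM below 1, *SPTLC3*, *DEGS2* and *GALC*, against 16.4% of protein-coding genes below 1. The *GALC* peaks were chr14:88399613-88400672 in the 3′UTR, chr14:88420444-88420927, which meets exons of the pseudogene *SHLD2P2*, and chr14:88444383-88444629, with no exon base.

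Beside the members with promoter peaks, no peak lay in the gene or within 10 kb of a start site in either replicate for 18 of the 41 members, against 50.3% of protein-coding genes: *SPTLC2*, *KDSR*, *ORMDL2*, *CERS1*, *CERS3*, *SGMS2*, *SMPD2*, *SMPD3*, *ACER1*, *ACER2*, *SPHK1*, *SGPP1*, *SGPP2*, *UGCG*, *ST3GAL5*, *NEU2*, *NEU3* and *NEU4*. At a mean of 1 or more it was 11 of 31, against 34.9%. For *UGCG*, the most expressed member, the nearest peak was 112319 bp away in replicate 1 and 226691 bp in replicate 2. The median distance over members was 299577 and 15708 bp, and over protein-coding genes 357788 and 21340 bp. The other members had no promoter peak but a peak in the gene or within 10 kb, in replicate 1 for *ACER3* and in replicate 2 for *SPTLC1*, *SPTLC3*, *DEGS2*, *CERS2*, *CERS5*, *CERS6*, *ASAH1*, *SGPL1*, *B4GALT5*, *GALC*, *GLA* and *NEU1*. Of the further 47 genes, *PLPP3* had a promoter peak in replicate 1, genes such as *COL4A3BP*, *ARSA*, *GLB1* and *PSAP* had one in replicate 2, and none of the 47 had one in both.

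HIF binds DNA at a short core, searched here as ACGTG or GCGTG on both strands. All 3 promoter peaks of replicate 1 held a core, as did 95.9% of all promoter peaks of protein-coding genes in that replicate. In replicate 2 it was 5 of 10, against 57.6%. Counting both replicates, 7 of these member peaks had a core no more than 100 bp from their centre, 3 of 3 in replicate 1 and 4 of 10 in replicate 2, against 92.3% and 34.4% of those promoter peaks. These stretches of peaks, on GRCh37, show the core nearest the peak centre in 4 members, with the core in capitals as ACGTG or GCGTG or, read from the other strand, CACGT or CACGC. They are examples from those 7 peaks and not all of them, shown so that the letters under a peak can be read. The core lies 8 bp from the centre in *ORMDL1*, 26 bp in *SMPD1*, 59 bp in *SMPD4* and 14 bp in *SPHK2*. The first is chr2:190649136-190649164 (minus strand, replicate 1), the next chr11:6415690-6415718 (plus strand), chr2:130940004-130940032 (minus strand) and chr19:49127878-49127906 (plus strand), all of replicate 2.
ORMDL1: cgcccgggggcaACGTGagattggcgctg
SMPD1: ggagccctgtggCACGCcctgccgtctgg
SMPD4: cgctcacttgaaCACGTcggggtcgatag
SPHK2: cccagggccagaCACGCaggcctatggat
These 4 stretches overlap exons, which the *CERK* peak, not shown, does not. A match of these letters is a description and does not show a bound site.

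Promoter sequences, from 250 bases before to 50 after the start, were taken from the RefSeq table on GRCh38.p14, which has 33 of the 41 genes. *SPTLC3*, *CERS2*, *CERS4*, *SMPD3*, *ASAH1*, *SGPP1*, *CERK* and *HEXA* are missing from it. ACGTG or GCGTG was found in 27 of the 33 (81.8%), against 54.7% of 22199 protein-coding promoters and 48.4% of all 35116. The median GC content was 70.3% in the members and 62.3% in the protein-coding promoters, and the part of base composition in the motif share was not tested. ACGTG alone was found in 5 of 33, *ORMDL1*, *ORMDL3*, *SPHK2*, *GLA* and *NEU1*, against 23.0% of protein-coding promoters. The members' share was thus above the background for the wider motif and below it for ACGTG.

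The stretch of the *ORMDL1* peak shown above is also in its RefSeq promoter, with the core 87 bases before the start. These promoter stretches, chosen after the matches were seen, show the other ACGTG promoters whose core lies outside exons, and *UGCG* as the gene with the highest level. They are chr17:39926862-39926920 (minus strand), chrX:101408034-101408092 (minus), chr6:31862916-31862974 (minus) and chr9:111896688-111896746 (plus) of GRCh38.p14, with cores in capitals as before.
ORMDL3: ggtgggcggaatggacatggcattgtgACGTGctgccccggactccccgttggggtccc
GLA: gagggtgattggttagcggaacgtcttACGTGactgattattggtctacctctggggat
NEU1: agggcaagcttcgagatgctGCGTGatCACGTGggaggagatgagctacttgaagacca
UGCG: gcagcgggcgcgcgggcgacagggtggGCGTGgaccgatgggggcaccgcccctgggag
In *NEU1* the letters CACGTG read the same on both strands, so ACGTG is counted once on each. No peak of either replicate lay within 1 kb of the annotated 5′ end of these 4 genes.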

How the data were processed

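All 4 libraries are labelled as HK2 cells treated with FG-4592. The authors trimmed reads with cutadapt, mapped RNA-seq reads with HISAT2 and ran StringTie (1.3.3 and GENCODE 27 per the file headers), and the deposited tables give coverage, FPKM and TPM per transcript. The study's methods name hg19, but the RNA-seq coordinates are those of GRCh38, so genes were joined to peaks by Ensembl identifier. The authors aligned ChIP-seq reads with Bowtie2 to hg19 and called peaks per replicate with MACS2.

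FPKM was summed over the transcripts of each gene, and log2 ratios used a pseudocount of 1. Start sites, exons and transcript types came from GENCODE 44 lifted to GRCh37. No condition could be compared, so no test was run. The members and lists were chosen with earlier results of these data known. Any member may be named, as may listed pathway genes with a promoter peak or averaging an FPKM of 10 or more. Transcripts of the largest FPKM, promoter peaks and sequences around their cores follow the same rule, and other choices are marked. The code was tested on simulated data. Tables were handled with pandas 2.3.3 and numpy 2.4.6, sequences with pysam 0.24.0 and figures with matplotlib 3.10.9, in Python 3.11.15.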

Additional observations from a re-analysis of the deposited data

How the results depend on the processing

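For 8 results, 45 alternatives were computed. Of these, 26 stayed within the spread between replicates or, for counts, within 1.5 times the value reported, and 19 did not. The median FPKM of the members (9.24 as a mean of both libraries) became 25.5 in TPM, another unit, 16.8 with only members of a mean FPKM of at least 1, 5.08 with the largest transcript only and 6.03 with protein-coding transcripts only. The median share of the largest transcript became 59.5% at a minimum mean FPKM of 5. Searching ACGTG only left 5 members with a promoter match, and 1 kb on either side of the start gave 32 of 33, where 95.2% of protein-coding genes had one.

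Promoter peaks of replicate 2 were found at 14 members with 3 kb around start sites and 17 with 10 kb, against 22.8% and 37.7% of protein-coding genes, and at 3 with the 5′-most start site only (5.81% of protein-coding genes) or with start sites of transcripts of a mean FPKM of at least 1 (6.96%). Members with one in both replicates numbered 2 with 3 kb and 3 with 10 kb, against 2.66% and 4.94% of protein-coding genes, and 0 where the peaks had to overlap by at least 1 bp (0.926%) or by 50% of the shorter (0.870%). Peaks without exon bases left 1 member in replicate 1, 0 in replicate 2 and 0 in both, against 0.936%, 0.636% and 0.0458% of protein-coding genes. Without one ChIP-seq replicate, the count for both replicates ranged from 3 to 8, since it then equals the count of the replicate kept. The alternatives on protein-coding transcripts and exon bases were chosen after seeing the data. The count of members with an FPKM of at least 1 and the median difference between libraries stayed within those limits under every alternative run for them.

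No paired analysis was possible because all libraries carry the same treatment and the results come from no test. With 2 libraries per assay, all treated, no value here separates an effect of FG-4592 from the level of these genes in HK2 cells. The RNA-seq tables hold no counts and the peak lists no scores, so low FPKM values have no known precision, a listed 0 has no floor, and peaks could not be filtered by strength. The replicate lists differ about as 1689 to 16953 peaks, and counts of members with peaks move with the list used.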
